A study of Mus musculus with 2 samples.

Results

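The genes described here are type I interferon-stimulated antiviral genes, a list of 34 symbols drawn up with earlier results of these data known, by a rule that sets no threshold on a measured value. Of these, 33 were analysed, out of 32285 genes in the count matrices, and Mx1 was not analysed here. Immune cells from lymph nodes of C57BL/6 mice were profiled one by one in droplets (10x Genomics 3′ libraries, which count the ends of transcripts). One group was wild type (WT) and the other was labelled a conditional knockout of RPA1 (CKO), the largest subunit of the single-stranded DNA-binding complex replication protein A, and the study's title asks about its role in T cells. Each genotype was 1 library. The labels give no Cre driver, age, sex, number of mice or treatment, and where deletion took place was read only from the Rpa1 levels below. No difference between the libraries has a replicate check, and no p-value is given. All intervals are 95% and cover counting error only.

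Type I interferons are secreted proteins that bind the receptor IFNAR1/IFNAR2 on nearly all cells. The receptor's kinases JAK1 and TYK2 activate the transcription factor complex ISGF3, which includes STAT2 and IRF9 and binds interferon-stimulated response elements in gene promoters. The induced proteins block steps of the viral life cycle, sense viral RNA or feed back on the pathway, and single cells are known to differ widely in how much of them they make.

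RefSeq promoter windows (GRCm38.p6, 250 bases before to 50 bases after the start) were found for 27 of the 33 genes and hold 31 windows. No window was matched for Ifi27l2a, Oas2, Usp18, Rtp4, Dhx58 and Parp14. The promoters of 5 genes are shown because they carry the element in genes whose values are described below. Each is the 200 bases just before the start, 5′ to 3′ on the gene's strand, and capitals mark each match to the core of the response element, GAAA followed after any 2 bases by a second GAAA, on either strand (read from the other strand it is TTTC, 2 bases and TTTC).
Isg15, chr4:156200819-156201018, minus strand: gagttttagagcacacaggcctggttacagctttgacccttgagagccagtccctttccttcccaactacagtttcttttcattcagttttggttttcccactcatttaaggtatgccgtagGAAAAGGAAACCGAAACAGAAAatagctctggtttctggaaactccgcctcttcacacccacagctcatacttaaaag
Ifit3, chr19:34583329-34583528, plus strand: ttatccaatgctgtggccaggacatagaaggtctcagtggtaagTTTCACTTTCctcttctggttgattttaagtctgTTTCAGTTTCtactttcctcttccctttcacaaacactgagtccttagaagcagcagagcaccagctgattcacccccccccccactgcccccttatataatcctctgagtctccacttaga
Ifit3b, chr19:34607757-34607956, plus strand: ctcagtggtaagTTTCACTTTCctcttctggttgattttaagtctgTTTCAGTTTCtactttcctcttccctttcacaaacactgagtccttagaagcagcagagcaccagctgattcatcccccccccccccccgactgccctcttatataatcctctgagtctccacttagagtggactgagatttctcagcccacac
Rsad2, chr12:26456453-26456652, minus strand: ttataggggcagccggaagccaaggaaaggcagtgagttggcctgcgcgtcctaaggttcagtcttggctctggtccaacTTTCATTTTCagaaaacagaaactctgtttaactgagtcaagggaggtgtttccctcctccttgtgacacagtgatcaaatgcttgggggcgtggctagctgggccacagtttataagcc
Bst2, chr8:71537473-71537672, minus strand: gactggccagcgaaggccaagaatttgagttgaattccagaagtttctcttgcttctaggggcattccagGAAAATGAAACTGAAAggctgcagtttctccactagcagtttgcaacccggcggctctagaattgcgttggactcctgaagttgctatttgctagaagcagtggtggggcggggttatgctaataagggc

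The Isg15 promoter holds 3 overlapping matches, the first of them starting 78 bases before the start, and Bst2 holds 2 overlapping matches, the first at 130 bases. Ifit3 and its neighbour Ifit3b carry the same pair of matches, at 156 and 122 bases before the start in Ifit3 and at 188 and 154 bases in Ifit3b. Set side by side at a fixed offset of 32 bases without gaps, their windows are identical at 75% of the 268 overlapping positions. A run of C differs in length between them and puts the bases after it out of step, so this share understates the match. The response element core stands in 13 of the 27 genes with a window (48.1%) and in 14 of their 31 windows (45.2%), against 3.44% of all 32851 RefSeq windows of the same length. TTCNNNGAA, the core of the gamma-activated site, stands in 6 of the 27 genes (22.2%) and in 19.4% of their windows, against 8.30% of all windows. The 2 motifs can share bases, and a match is a run of letters, not a shown binding site.

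Cells were gated on raw UMIs (unique molecular identifiers, 1 for each counted transcript). T cells had at least 2 UMIs of Cd3d, Cd3e and Cd3g together and none of Cd79a, and they were split by Trdc, Foxp3, Cd4 and Cd8b1 UMIs. B cells had at least 2 Cd79a UMIs and no Cd3e UMI, and NK cells at least 1 Ncr1 UMI and no Cd3e UMI. The libraries held 84813609 UMIs over 12769 barcodes (WT) and 76200586 over 13754 (CKO), 56 barcode sequences were shared, and 11169 and 11804 cells were kept, with medians of 5826 and 4422 UMIs. The make-up of the T gate differed: Trdc+ cells were 3.01% of WT and 17.7% of CKO T cells, CD8 cells 36.02% and 13.0%, and CD4 cells 36.3% and 38.1%. T cells numbered 7715 in WT and 3531 in CKO (69.1% and 29.9% of kept cells), B cells 2754 and 7319, and NK cells 81 and 236. The T markers followed the T and B gates: the 5 T markers Trac, Trbc1, Trbc2, Cd2 and Lck summed to 4290 and 4401 counts per 1000000 UMIs of the gate (CPM) in T cells and to 233 and 240 CPM in B cells. In the NK gate the NK markers summed to 11249 and 10953 CPM, the T markers to 1392 and 1260 CPM and the B markers to 955 and 624 CPM. Of the NK cells, 8 in WT and 17 in CKO were also in the T gate, and 4 and 9 in the B gate. In the T gate Rpa1 stood at 40.6 (WT) and 26.3 CPM (CKO) (ratio 0.647, interval 0.590 to 0.709). B cells had 40.8 and 35.7 CPM of Rpa1 (0.875, 0.789 to 0.971), and NK cells 41.1 and 54.0 CPM (1.32, 0.797 to 2.27). The 3′ reads do not show whether a counted Rpa1 transcript carried the deletion.

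The summed level of the interferon-stimulated genes was higher in the CKO library in every gate. T cells held 4461 CPM of the module (WT) and 6588 CPM (CKO) (ratio 1.48, interval 1.47 to 1.49). With the T subsets given the same weights in both libraries the log2 ratio was 0.562, and it was 0.562 without those weights. CD4 T cells went from 4237 to 6170 CPM (1.46, 1.44 to 1.47) and CD8 T cells from 4557 to 6755 CPM (1.48, 1.46 to 1.505). Foxp3+ T cells, the regulatory subset, had the highest WT level of the gates, 5170 CPM, against 6952 CPM in CKO (1.34, 1.31 to 1.38). Trdc+ T cells, which transcribe the constant gene of the γδ receptor, held 4409 and 6900 CPM (1.57, 1.53 to 1.61). In that gate the 3 γδ markers summed to 181 and 412 CPM, the 5 NK markers to 531 and 1419 CPM and the 3 monocyte markers to 3.19 and 89.4 CPM, and the part of the NK markers in the result was not tested. B cells, whose Rpa1 ratio was nearer to 1 than that of T cells, held 3571 and 4976 CPM (1.39, 1.38 to 1.41). NK cells had the lowest levels, 2189 and 3259 CPM (1.49, 1.39 to 1.59). In WT the order from the lowest was NK, B, CD4, Trdc+, CD8 and Foxp3+. The counting intervals of neighbours in that order did not overlap, but they treat each UMI as independent. They leave out the spread between cells, which was far above counting noise in the T gate, as given below. They therefore do not show that neighbouring gates differ, and that was not tested. The differences between the gates' ratios have no test, since each gate is the same 2 libraries.

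**Figure D1:**
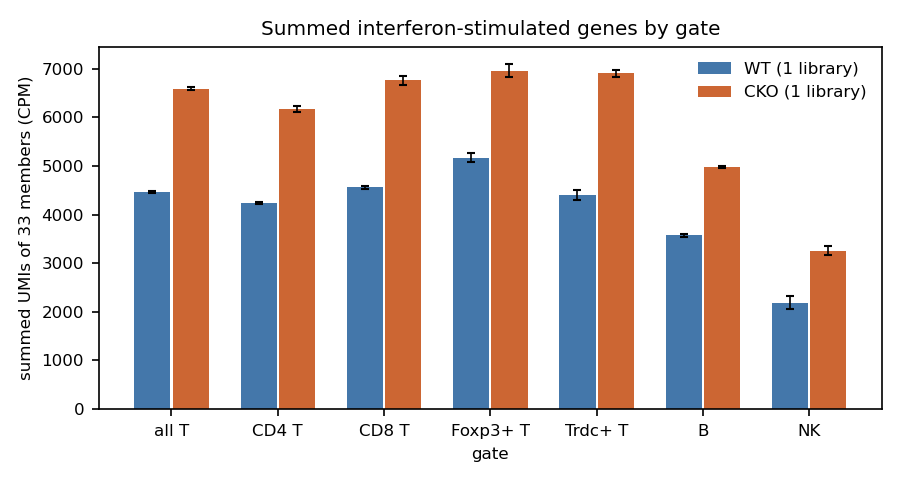
Summed UMIs of the 33 interferon-stimulated genes in CPM (vertical axis) in each gate of the WT (blue) and CKO (orange) libraries, 1 library each, with bars from 0 and error bars giving the exact Poisson interval at 95%. The CKO bar is the higher in all 7 gates, from 3259 CPM in NK cells to 6952 CPM in Foxp3+ T cells.

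RNA of other cell types also differed between the libraries within the gates. After thinning to 2000 UMIs, an Igkc UMI, from the B cell light chain, was seen in 5.60% of WT and 8.84% of CKO T cells (15.9% and 23.9% before thinning). The B marker sum was 294 (WT) and 289 CPM (CKO) in the T gate. Among T cells without any Igkc UMI (6490 of 7715 in WT and 2688 of 3531 in CKO) the log2 ratio of the module was 0.570, against 0.562 in all T cells. The plasma cell gene Jchain had 810 (WT) and 172 CPM (CKO) in the B gate, and B cells without a Jchain UMI gave a log2 ratio of 0.466 against 0.479. The monocyte gene Lyz2 was seen in 43 of 7715 WT and 35 of 3531 CKO T cells, and its level went in opposite ways in the subsets, at 11.8 and 1.97 CPM in CD4, 15.1 and 0.312 CPM in CD8 and 1.91 and 81.1 CPM in Trdc+ cells. Single cells held 421 of the 1323 WT and 316 of the 513 CKO Lyz2 UMIs. Without cells that held a Lyz2 UMI the log2 ratio of the module was 0.569 in T, 0.553 in CD4, 0.576 in CD8 and 0.627 in Trdc+ cells, against 0.562, 0.542, 0.568 and 0.646. Plasmacytoid dendritic cells make much interferon and transcribe Siglech, Ccr9 and Bst2, and Bst2 is itself one of the genes described. Siglech was at 1.61 and 3.19 CPM in T cells and at 1.62 and 3.08 CPM in B cells.

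Whether all cells shifted or a high fraction grew was read from the number of module UMIs per cell after each cell was thinned to 2000 UMIs. Shallower cells were left out, 36 WT and 23 CKO cells in the T gate. WT T cells had a median of 5 module UMIs and CKO T cells a median of 9. The 10th percentile was 1 UMI in both, the 25th was 2 and 3, the 75th 12 and 20, the 90th 22 and 33, the 95th 30 and 42, and the 99th 46 and 62. Cells without any module UMI made up 6.03% of WT and 3.56% of CKO T cells. The upper part of the distribution was thus further apart in UMIs than the lower part, where values lie near the level of single UMIs. The variance over the mean was 11.2 in WT and 14.2 in CKO, both far above the value of 1 that equal cells with counting noise alone would give.

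The mean difference of 4.75 UMIs per T cell was spread unevenly over the ranks, and many of the lowest percentiles were equal in the libraries. The lower 50% of cells, ranked within each library, gave 11.8% of it, the ranks from 50 to 90% gave 61.7%, and the upper 10% gave 26.4%. WT T cells themselves carried 13.2%, 49.8% and 37.0% of their module UMIs in those bands, so the middle band's part of the difference was larger, and the top band's part smaller, than its part of the WT level. Cells above the WT 95th percentile (more than 30 UMIs) made up 4.68% of WT T cells (359 of 7679, interval 4.21 to 5.17%) and 12.0% of CKO T cells (421 of 3508, 10.9 to 13.1%). At that cut 35 WT and 37 CKO cells lay exactly on 30 UMIs and 34 and 35 cells on 31, with no gap in either library. The share above the 90th percentile was 9.62% and 21.0%, and that above the 99th was 0.964% and 3.65%.

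At a thinning depth of 4000 UMIs, with cells put in classes that double in width, the fullest class of T cells was 3 classes higher in CKO. Of 7198 WT T cells 23.0% had 4 to 7 module UMIs, 22.1% had 8 to 15 and 13.6% had 32 to 63. Of 3081 CKO T cells 16.8% had 4 to 7 UMIs, 17.4% had 8 to 15 and 22.0% had 32 to 63, which was the fullest class (interval 20.6 to 23.5%). The class of 16 to 31 UMIs held 20.4% of WT and 20.2% of CKO cells. The classes below 16 UMIs thus held fewer CKO cells and those above 31 more, while cells with 2 or 3 UMIs were still 12.3% of WT and 10.0% of CKO cells. The intervals of neighbouring classes overlapped at both peaks, and the medians at this depth were 10 and 18 UMIs. At 2000 UMIs the fullest class was 4 to 7 UMIs in WT (23.5%) and 16 to 31 in CKO (22.7%), 2 classes higher.

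B cells showed a smaller difference, also spread unevenly over the ranks. At 4000 UMIs, which 1426 WT and 3321 CKO B cells reached, the medians were 8 and 13 UMIs. The fullest class was 8 to 15 UMIs in WT (23.4%, with 23.1% in the class of 4 to 7) and 16 to 31 UMIs in CKO (23.7%). At 2000 UMIs the medians were 4 and 6, and the share above the WT 95th percentile of 27 UMIs was 4.59% (3.84 to 5.45%) in WT and 8.27% (7.64 to 8.93%) in CKO. The lower 50%, the ranks from 50 to 90% and the upper 10% of B cells gave 14.4%, 58.6% and 27.0% of the mean difference of 2.73 UMIs. WT B cells carried 10.9%, 48.1% and 40.9% of their module UMIs in those bands. The lower 50% of B cells thus gave a larger part of the difference than of the WT level. In T cells it gave a smaller part, 11.8% against 13.2%, and this contrast was not tested.

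**Figure D2:**
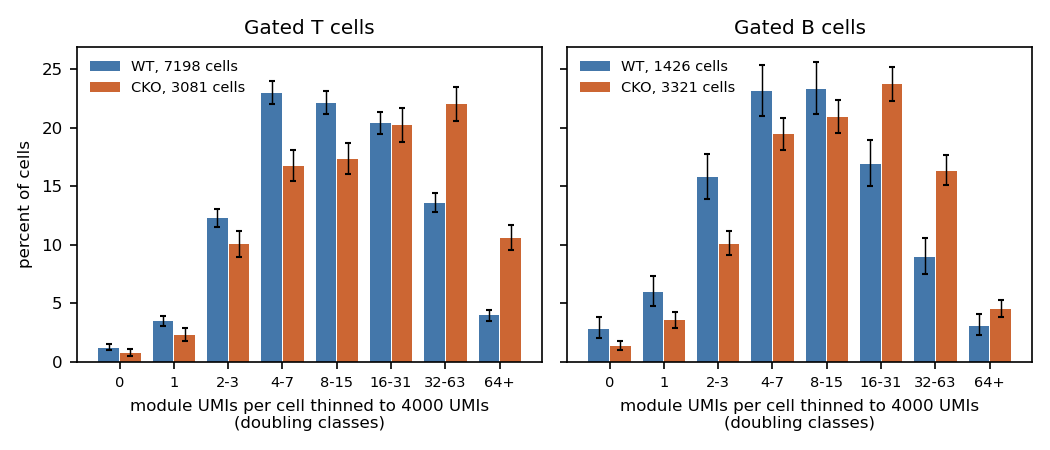
Percent of gated T cells (left) and B cells (right) on the vertical axis by their number of module UMIs after thinning to 4000 UMIs, in classes that double in width, for WT (blue) and CKO (orange), with exact binomial intervals at 95%. In T cells the fullest class is 4 to 7 UMIs in WT and 32 to 63 UMIs in CKO, and low cells are present in both libraries.

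Among the T subsets the share above each gate's own WT 95th percentile was higher in CKO throughout. CD4 T cells (cut 27 UMIs) had 4.87% in WT and 13.6% in CKO (11.8 to 15.5%), with medians of 5 and 7 UMIs. CD8 T cells (cut 31) had 4.75% and 11.2% (8.42 to 14.4%), with medians of 5 and 10. In CD8 T cells the lower 50% of ranks gave 17.6% of the mean difference and the upper 10% gave 18.2%, against 9.12% and 29.4% in CD4 T cells. Foxp3+ T cells (cut 34) had 4.55% (2.37 to 7.81%) and 10.3% (6.71 to 14.9%), 2 intervals that overlap. Trdc+ T cells (cut 29) had 3.88% (1.79 to 7.24%) and 16.2% (13.4 to 19.3%). This cut rests on few WT cells: another random draw gave 4.74% and 14.9%, and without the 3 WT and 15 CKO cells that held a Lyz2 UMI the shares were 3.93% and 11.8%. Both settings drew the UMIs anew and set the WT cut again. The part of the left-out cells in the change therefore cannot be read from these shares. NK cells (cut 14) had 4 of 81 cells above it in WT (4.94%, 1.36 to 12.2%) and 32 of 233 in CKO (13.7%, 9.59 to 18.8%). The NK medians were 2 and 3 UMIs, and 6 of 81 WT cells (7.41%) and 26 of 233 CKO cells (11.2%) had no module UMI. In the other 6 gates the share without a module UMI was the lower in CKO.

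**Figure D3:**
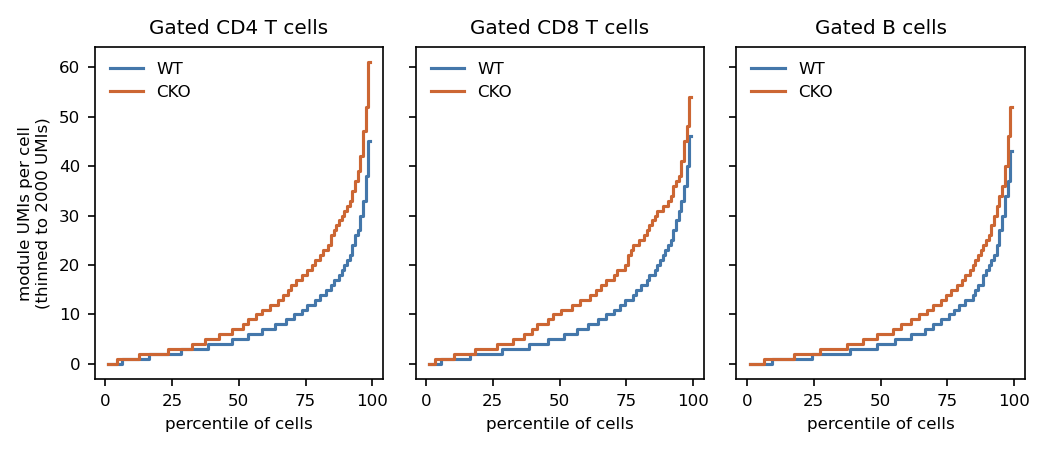
Module UMIs per cell after thinning to 2000 UMIs (vertical axis) at each percentile of cells (horizontal axis) for CD4 T, CD8 T and B cells of the WT (blue) and CKO (orange) libraries. The curves coincide at many of the lowest percentiles and are already apart at the median, at 5 and 7, 5 and 10, and 4 and 6 UMIs.

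Member by member, 31 of the 33 genes reached a mean of 5 CPM in T cells, and Trim30b and Phf11d did not. Of these 31, 18 were at least 1.5-fold higher in CKO T cells, where 2.52% of all 8702 genes at that level were, and none was 1.5-fold lower, against 0.931% of all genes. Their median ratio was 1.63, from 1.24 for Lgals3bp to 2.13 for Oas1a, and the median of all genes was 1.05. All 31 intervals lay above 1, as did those of 36% of all genes. In B cells 31 genes reached the level, all but Ifi44 and Phf11d. Of them 19 were at least 1.5-fold higher, against 0.765% of all genes, and none was lower by that fold (1.53% of all genes). The B cell median ratio was 1.56, from 1.14 for Ifi35 to 2.16 for Oas1a, against 1.02 for all genes.

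The subsets gave similar counts. At least 1.5-fold higher in CKO were 16 of 31 genes in CD4 T cells (1.73% of all genes), 17 of 32 in CD8 T cells (5.54%), 19 of 30 in Foxp3+ T cells (7.37%) and 25 of 32 in Trdc+ T cells (10.3%). At least 1.5-fold lower were none of the measured genes in these 4 gates, against 1.83%, 1.68%, 11.5% and 5.74% of all genes. The median ratios were 1.51, 1.53, 1.57 and 1.77, where those of all genes were 1.03, 1.08, 0.988 and 1.04. In NK cells 18 of 31 genes were at least 1.5-fold higher (11.8% of all genes) and Trim30d was lower by that fold (14.1% of all genes), with a median ratio of 1.56 against 0.972. The NK gate holds 1066 module UMIs in WT and 4704 in CKO, and small gates put more genes past a fixed fold by counting error alone.

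Genes of the ubiquitin-like modifier ISG15 come first. Isg15 (chromosome 4, 156199424 to 156200818, GRCm38), a ubiquitin-like protein that is joined to other proteins in the antiviral state and whose promoter is shown above, had 348 (WT) and 655 CPM (CKO) in T cells (1.88, 1.84 to 1.92). After thinning, 29.0% of WT and 43.2% of CKO T cells held at least 1 Isg15 UMI. Foxp3+ T cells had 264 and 682 CPM of Isg15 (2.58, 2.32 to 2.87), CD4 T cells 304 and 624 CPM (2.05, 1.97 to 2.13), and CD8 T cells 391 and 656 CPM (1.68, 1.60 to 1.76). B cells were lower in both libraries, at 111 and 189 CPM (1.71, 1.61 to 1.81). Usp18, the protease that removes ISG15 from proteins and also damps the receptor, stood at 86.0 and 158 CPM in T cells (1.84, 1.76 to 1.92). Herc6, the mouse ligase that attaches ISG15, had 102 and 152 CPM (1.49, 1.43 to 1.55).

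The Ifit genes, which encode proteins that bind foreign RNA ends, lie together on chromosome 19 and had ratios from 1.62 to 1.70 in all T cells, but from 1.35 (Ifit2) to 1.87 (Ifit3b) in CD4 and from 1.31 (Ifit3b) to 1.73 (Ifit2) in CD8 T cells. Ifit1 stood at 160 and 272 CPM in T cells (1.70, 1.65 to 1.76) and Ifit2 at 53.5 and 86.7 CPM (1.62, 1.53 to 1.72). Ifit3 had 179 and 296 CPM (1.65, 1.60 to 1.71) and Ifit3b 42.9 and 70.0 CPM (1.63, 1.53 to 1.74). Ifit3 and Ifit3b are related genes, so reads may be split between them and their separate levels are uncertain. Their transcripts were not compared here. In NK cells Ifit3 was at 18 UMIs in WT and 221 in CKO (37.0 and 153 CPM, ratio 4.14, 2.56 to 7.12).

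The oligoadenylate synthetase family on chromosome 5, whose enzymes activate the RNA-cutting enzyme RNase L when they meet double-stranded RNA, was spread more widely. Oas1a, at 7.55 and 16.1 CPM, had the highest ratio of the 31 genes in T cells (2.13, 1.84 to 2.46), and Oas3, at 48.6 and 65.2 CPM, one of the lower ones (1.34, 1.26 to 1.43). Oas2 had 24.4 and 42.7 CPM (1.75, 1.60 to 1.90). The Oas-like genes Oasl1 and Oasl2 had ratios of 1.86 (1.69 to 2.05) and 1.66 (1.56 to 1.76). The order was not the same in B cells, where Oas3 stood at 20.7 and 39.4 CPM (1.91, 1.67 to 2.18). In NK cells Oas2 had 0 UMIs in WT and 3 in CKO, too few for a fold.

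Effectors at membranes and in nucleotide metabolism were also higher in CKO. Rsad2 encodes viperin, which makes a chain-terminating nucleotide, and lies beside Cmpk2, a nucleotide kinase gene, on chromosome 12. Rsad2 stood at 56.1 and 110 CPM in T cells (1.96, 1.86 to 2.07) and Cmpk2 at 27.1 and 45.9 CPM (1.69, 1.56 to 1.83). Thinned T cells held an Rsad2 UMI in 6.58% of WT and 13.3% of CKO cells, so most cells of both libraries showed none at this depth. Bst2, which encodes tetherin, a protein that holds budding virions to the cell, stood at 329 and 555 CPM (1.69, 1.65 to 1.73), and in B cells at 171 and 242 CPM (1.41, 1.35 to 1.48). Isg20, an exonuclease gene, was at 99.8 and 178 CPM in T cells (1.78, 1.71 to 1.85) and at 73.8 and 91.9 CPM in B cells (1.245, 1.16 to 1.34).

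Ifi27l2a (chromosome 12, 103442167 to 103443680), a small interferon-induced gene, gave more of the module's UMIs in T and B cells than any other gene. In T cells it stood at 1598 and 2033 CPM (1.27, 1.26 to 1.29), which was 35.8% of the module's UMIs in WT and 30.9% in CKO. Foxp3+ T cells had 2716 and 2768 CPM (1.02, 0.978 to 1.06), the highest levels of the 7 gates and an interval that includes 1, while Isg15 in the same cells was 2.58-fold higher. B cells had 1440 and 1860 CPM (1.29, 1.27 to 1.31), and NK cells, where Bst2 gave more UMIs, 199 and 311 CPM (1.56, 1.252 to 1.97). Without Ifi27l2a, Isg15 and Bst2 the log2 ratio of the module was 0.613 in T cells and 0.538 in B cells.

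Genes that sense RNA or regulate the response were all higher in CKO T cells, by different amounts. Irf7, the transcription factor gene that amplifies interferon production, stood at 117 and 201 CPM in T cells (1.72, 1.65 to 1.78) and at 79.4 and 202 CPM in Foxp3+ T cells (2.54, 2.09 to 3.11). Of the cytosolic RNA sensors, Ddx58 (RIG-I) had 107 and 141 CPM in T cells (1.32, 1.26 to 1.38), Ifih1 (MDA5) 44.8 and 67.6 CPM (1.51, 1.41 to 1.61), and their relative Dhx58 (LGP2) 22.0 and 31.8 CPM (1.44, 1.31 to 1.58). Parp14, an ADP-ribosyltransferase gene, stood at 160 and 227 CPM (1.41, 1.37 to 1.46). Rtp4 (1.26), Ifi35 (1.33), Xaf1 (1.36), Phf11b (1.31) and Lgals3bp (1.24) were all under 1.5-fold in T cells, and Ifi44, at 7.71 and 13.0 CPM, was at 1.69. Among the T subsets Ifi44 differed in direction, at 10.3 and 9.47 CPM in CD4 T cells (0.919, 0.695 to 1.21) and 10.2 and 34.2 CPM in Trdc+ T cells (3.35, 1.999 to 6.01), and that difference was not tested.

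The 4 Trim30 genes lie within 1 cluster on chromosome 7 and encode related RING finger proteins, so that reads may be split between copies. Trim30a, a regulator of innate signalling, stood at 220 and 312 CPM in T cells (1.42, 1.38 to 1.46). Trim30c was at 3.23 and 12.9 CPM in CD4 T cells (3.999, 2.87 to 5.61), at 44.1 and 80.3 CPM in CD8 T cells (1.82, 1.58 to 2.09) and at 23.6 and 105 CPM in Trdc+ T cells (4.44, 3.17 to 6.38). Trim30b was mostly a B cell transcript, at 101 and 143 CPM in B cells (1.42, 1.33 to 1.51) and 1.90 and 6.87 CPM in T cells (3.62, 2.80 to 4.71). The T cell level was 1.88% of the B cell level in WT and 4.81% in CKO, where that of Igkc was 0.167% and 0.462%. Among T cells without an Igkc UMI the Trim30b ratio was 3.38 (2.54 to 4.51).

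**Figure D4:**
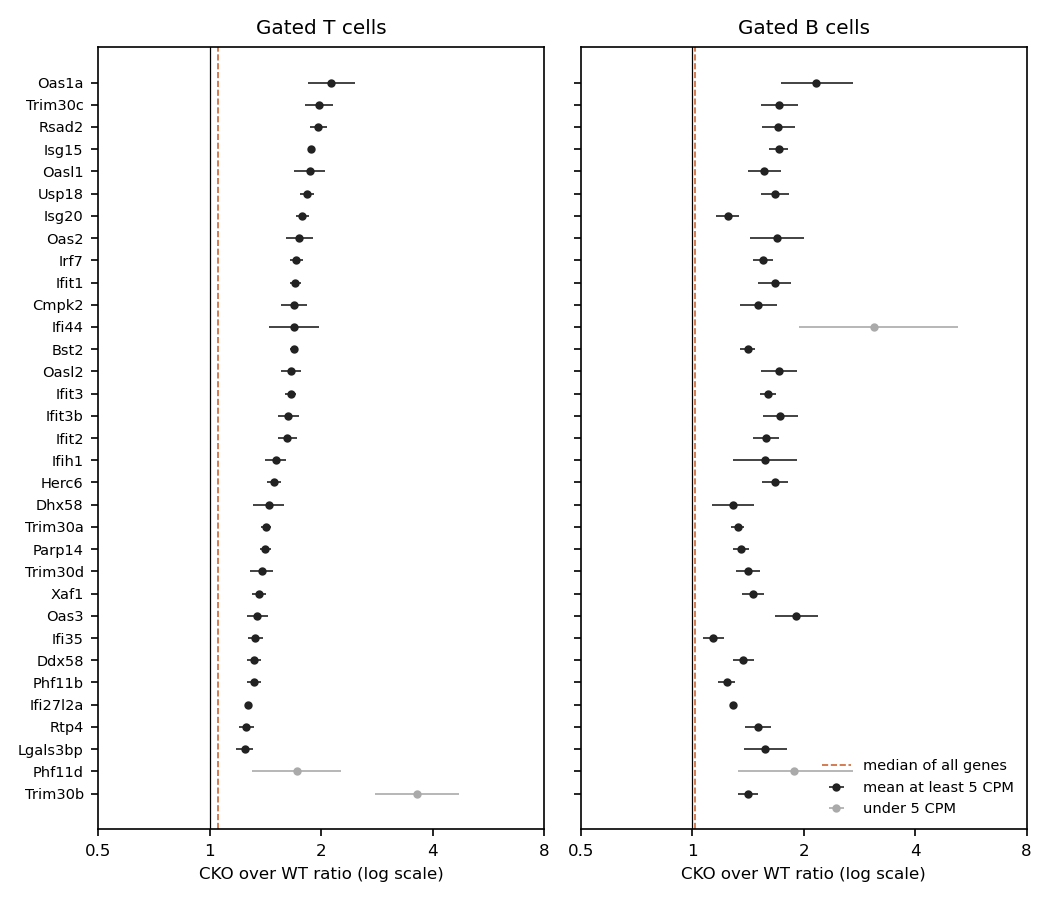
CKO over WT ratio (log scale) of each of the 33 genes in gated T cells (left) and B cells (right), with exact conditional intervals at 95%, genes under a mean of 5 CPM in grey, and a dashed line at the median of all genes (1.05 and 1.02). All black points lie to the right of 1, from 1.24 to 2.13 in T cells and from 1.14 to 2.16 in B cells.

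In NK cells the comparison rests on few cells, and 1 of them weighs on it. Siglech had 21 UMIs in 2 of the 81 WT NK cells, 19 of them in 1 cell, and none in the 236 CKO NK cells. That cell held 15 of the 75 Irf7 UMIs, 59 of the 154 Bst2 UMIs and 7 of the 36 Trim30d UMIs of the WT gate. Over all NK cells Irf7 stood at 154 and 155 CPM (1.003, 0.769 to 1.32) and Bst2 at 316 and 337 CPM (1.07, 0.887 to 1.29). Without the cells that held Siglech the Bst2 ratio was 1.65 (1.32 to 2.08), the Irf7 ratio 1.20 (0.900 to 1.63) and the log2 ratio of the module 0.799 in place of 0.575. Trim30d, at 73.9 and 47.1 CPM (0.637, 0.420 to 0.983), then had an interval that includes 1 (0.758, 0.484 to 1.21). The myeloid gene Lyz2 had 0 UMIs in WT and 70 in CKO NK cells, and without the 8 CKO cells that held it the log2 ratio of the module was 0.583.

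To see which genes share the high cells, T cells were called high for a gene when the sum of all other genes of the module exceeded its WT 95th percentile, so that the gene itself did not choose the cells. Depending on the gene this gave 346 to 383 high cells in WT and 399 to 457 in CKO. All 31 measured genes were at least 1.5-fold higher in those cells in both libraries, where 6.06% of all genes in WT and 5.76% in CKO were, with a median of 6.19-fold over the other T cells in WT and 5.08-fold in CKO. Rsad2 was the most concentrated, at 516 CPM in high and 33.9 CPM in other WT cells (15.2-fold, 14.1 to 16.4) and 586 and 49.96 CPM in CKO cells (11.7-fold, 10.8 to 12.7). Ifi27l2a was the least, at 3621 and 1504 CPM in WT (2.41-fold, 2.35 to 2.46) and 3646 and 1839 CPM in CKO (1.98-fold, 1.94 to 2.03). Isg15 in high cells had 2182 (WT) and 2561 CPM (CKO).

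The T cells that were not high differed between the libraries as well, by less. Among them the median CKO over WT ratio of the 31 genes was 1.30, against 1.63 in all T cells, and 7 of the 31 were at least 1.5-fold higher, against 2.45% of all genes. The range ran from 1.04 for Phf11b to 1.85 (1.55 to 2.21) for Oas1a, with Isg15 at 264 and 428 CPM (1.62, 1.58 to 1.67). In B cells the same median was 1.43, with 8 of 31 genes at 1.5-fold or more (0.582% of all genes), and in CD4 and CD8 T cells it was 1.28 and 1.36. A fixed cut leaves more cells near it in the library that is higher, so this ratio includes cells just under the cut.

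**Figure D5:**
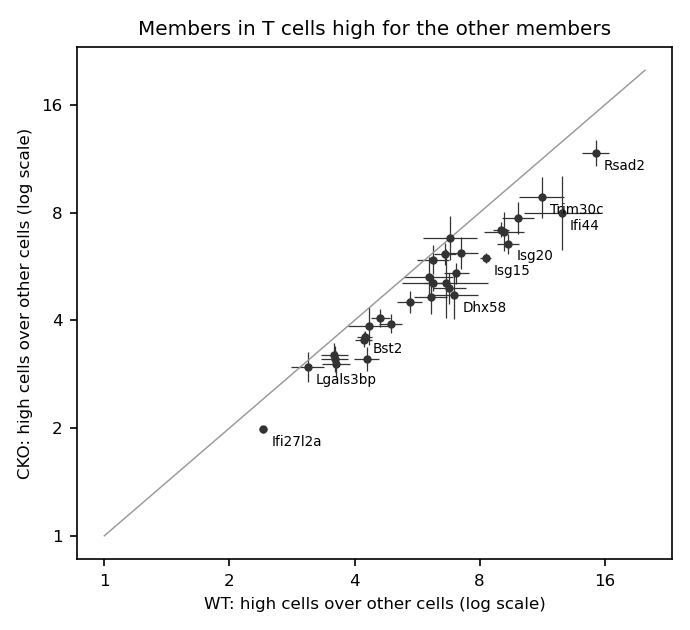
Fold of each of the 31 measured genes in T cells high for the other genes of the module over the remaining T cells, in WT (horizontal, log scale) and CKO (vertical, log scale), with exact conditional intervals at 95% and the line of equality in grey. The folds run from 2.41 for Ifi27l2a to 15.2 for Rsad2 in WT and from 1.98 to 11.7 in CKO.

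Outside the list, 4963 genes of at least 20 CPM in high WT T cells were ranked by the same fold, and the 10 highest were Ifi204, Cxcl10, Ifitm3, Ccrl2, Ube2l6, Iigp1, Slfn5, Tor3a, Parp12 and Phf11a. WT values chose these genes, so only their CKO values are a separate reading. In CKO T cells the fold was 8.35 (5.61 to 12.4) for Ifi204, a DNA-binding p200 protein gene, and 15.6 (12.6 to 19.4) for the chemokine gene Cxcl10. It was 8.06 for Ifitm3, which blocks virus entry, and 6.94 (5.52 to 8.71) for Ube2l6, the conjugating enzyme of ISG15. Slfn5, at 1797 and 197 CPM in high and other WT cells, stood at 2070 and 300 CPM in CKO. Lyz2 was at 25.1 and 23.0 CPM in all WT and CKO T cells, moved in opposite ways in the subsets as given above, and the part of RNA from myeloid cells in these folds was not tested.

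Upstream of these genes, the receptor and signalling list of 14 genes differed less. In T cells 3 of the 14 were at least 1.5-fold higher and none lower, with a median ratio of 1.15, where 2.52% and 0.931% of all genes were. They were Stat2 at 31.1 and 51.4 CPM (1.65, 1.53 to 1.78), a subunit of ISGF3, and the feedback inhibitors Socs1 at 52.6 and 93.0 CPM (1.77, 1.67 to 1.87) and Socs3 at 33.6 and 54.8 CPM (1.63, 1.51 to 1.75). The receptor chains Ifnar1 (60.5 and 69.1 CPM, ratio 1.14) and Ifnar2 (55.7 and 56.4 CPM, 1.01) and the transducer Irf9 (98.5 and 116 CPM, 1.18) lay nearer to 1. In B cells 0 of 13 measured genes of this list reached 1.5-fold, as did only 0.765% of all genes, with a median of 1.11. These sums come from the same libraries, and no test sets this list apart from other genes.

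The nucleic acid sensing list had 1 of 13 measured genes at 1.5-fold or more in T cells, the RNA sensor gene Tlr7 (10.8 and 17.8 CPM, 1.65, 1.45 to 1.88), against 2.52% of all genes, and a median of 1.14. Zbp1, a sensor of Z-form nucleic acids, stood at 159 and 226 CPM (1.43, 1.38 to 1.48), and Samhd1, which breaks down nucleotides, at 295 and 399 CPM (1.35, 1.32 to 1.39). Of 33 other measured interferon-induced genes, 5 were at least 1.5-fold higher in T cells (2.52% of all genes) and none lower (0.931%), with a median of 1.34. Ifitm3 led them at 26.4 and 106 CPM (4.01, 3.75 to 4.29), and Iigp1, a GTPase gene that acts on parasite vacuoles, followed at 64.9 and 136 CPM (2.09, 1.99 to 2.19). Ifi208 and Epsti1 were lower in CKO T cells, at 156 and 112 CPM (0.717, 0.685 to 0.750) and 379 and 330 CPM (0.870, 0.847 to 0.894), and Ifi208 stood at 58.0 and 11.7 CPM in B cells (0.203, 0.179 to 0.229).

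Transcripts of the interferons themselves were scarcely counted. Of 20 interferon genes, 17 had 0 UMIs in the T cells of both libraries, Ifnb1 among them, and at most 1 UMI of Ifnab and Ifnk was seen in either. A count of 0 allows up to 3 UMIs per library and covers counted RNA of these cells only. Ifng, the type II interferon gene, stood at 3.78 and 10.2 CPM in T cells (2.71, 2.23 to 3.30), at 156 and 185 CPM in NK cells (1.19, 0.916 to 1.55) and at 17 and 27 UMIs in B cells. The T cell ratio pools subsets that differed. Over the 20 interferon genes together, Trdc+ cells had 14 UMIs in WT and 168 in CKO (8.93 and 36.8 CPM). CD8 cells had 122 and 38 UMIs (5.75 and 11.9 CPM), CD4 cells 24 and 0, and Foxp3+ cells 5 and 1. Trdc+ cells were 3.01% of WT and 17.7% of CKO T cells, and the part of that make-up in the T cell ratio was not tested.

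The ratios of genes with and without the response element core in their promoter were alike in these libraries. In T cells the median ratio was 1.63 over the 13 genes with it and 1.67 over the 12 measured genes that have a window without it, and 8 genes of each kind were at least 1.5-fold higher. In B cells the medians were 1.60 and 1.56. The printed promoters of Isg15, with 3 matches, and of Rsad2, with 1, belong to genes with T cell ratios of 1.88 and 1.96. A window of this length leaves out elements farther away, and no match says only that these letters are not in it.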

How the data were processed

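Gene counts for lymph node cells of 1 WT and 1 CKO library were used as deposited: whole-number UMI counts per gene and barcode, not normalized by the authors. Per the file headers they were made with Cell Ranger 6.0.2, while the submitters' processing notes name Cell Ranger 5.0.0, Seurat 4.0.3 and build mm10. A barcode entered with 500 or more UMIs, 200 or more genes and no more than 10% of UMIs from mitochondria (a limit that 306 WT and 437 CKO barcodes failed), and those with the highest Scrublet scores (scanpy 1.11.5), 0.8% per 1000 barcodes, were left out as doublets (1304 and 1513). UMIs were summed per gate and scaled to counts per 1000000 UMIs of the gate (CPM). Poisson, conditional binomial and Clopper-Pearson intervals at 95% cover counting error only. Cells were thinned without replacement to 2000 or 4000 UMIs, with a fixed seed. A gene was measured at a mean of 5 CPM over both libraries and counted at 1.5-fold. Gene positions come from GENCODE M21. Cells are not replicates, so 1 library a genotype allows no test. On simulated T cell counts the intervals held the true ratio for 95.0% of 8627 genes, and on simulated B cell counts for 95.4% of 8780 genes. The simulated counts were independent Poisson draws, the model the intervals are built on, so a share near 95% was fixed in advance. They held no spread between cells or libraries, so they do not show how the intervals do on these data. The genes named are the listed members, the pathway lists, the 10 highest-ranked other genes in high WT cells, the gate markers and Rpa1. Members, lists and gates were chosen with earlier results of these data known. Stricter gates, other filters, scalings, depths and thresholds were tried.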

Additional observations from a re-analysis of the deposited data

Results flagged for a closer look

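Trim30d had a higher level in CKO than in WT T cells (ratio 1.38) and B cells (1.41) but a lower one in NK cells (0.637), so that 1 gene moved in opposite directions in gates of the same 2 libraries. The difference was not tested, and in NK cells without a Siglech UMI the ratio was 0.758 with an interval that includes 1.

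Kept cells outside all 3 gates, which the comparisons above do not use, also held more of the module in CKO, 5757 CPM against 4595 CPM (ratio 1.253, 1.23 to 1.27). They number 631 and 744 cells of several kinds.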

How the results depend on the processing

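No sum of the module and no share above the cut reversed its direction in any setting tried. The log2 CKO over WT ratio of the module in T cells, 0.562, ranged from 0.486 to 0.638: 0.578 with no cells left out as doublets and 0.578 with all barcodes, 0.638 in cells of 3000 to 8000 UMIs, 0.613 without Isg15, Bst2 and Ifi27l2a, 0.486 without ribosomal protein and mitochondrial genes in the totals and 0.487 relative to the median gene. In B cells (0.479) the same settings gave 0.457, 0.456, 0.460 and 0.538, and 0.450 relative to the median gene. In NK cells (0.575) it was 0.902 in cells of 3000 to 8000 UMIs, 0.706 in cells of neither other gate and 0.799 without a Siglech UMI, the last 2, like the settings without Igkc, Jchain or Lyz2 UMIs, chosen after seeing the data. The T cell share above the WT percentile was higher in CKO by 7.33 points, by 5.44 without those 3 genes, by 11.4 at the 90th and by 2.69 at the 99th percentile. In B cells (3.67 points) it was 6.11 and 1.40 at these percentiles. Counts of genes depend on the fold: in T cells 18 became 30 at a limit of 25% higher and 1 at 2-fold, in B cells 19 became 1 and in NK cells 18 became 11 at 2-fold. In NK cells Ifih1 changed direction when scaled to the median gene and, like Trim30b, without the cells that held Siglech (0.984 to 1.41, and 0.731 to 1.05), and the median of all genes was 0.108 on the log2 scale in CD8 T cells. No paired analysis was possible because each genotype is 1 library, and no library could be left out. Of 561 values of single genes in T and B cells under other settings, 66 moved beyond their counting interval and 0 reversed. The causes were not tested.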
